A study of Rattus norvegicus with 16 samples.

Results

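Matricellular proteins, lysyl oxidases and small leucine-rich proteoglycans were examined by poly(A) RNA sequencing of rat glomeruli, the filtering units of the kidney. The set was defined by name as 10 genes (Sparc, Thbs1, Tnc, Postn, Lox, Loxl1, Loxl2, Bgn, Dcn and Lum), and a row of the expression table belonged to it when its gene symbol was one of these names. This rule used no measured value. It found 6 genes among the 13222 of the table, namely Sparc, Thbs1, Bgn, Lox, Loxl1 and Loxl2, and Tnc, Postn, Dcn and Lum are not analysed here.

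The glomeruli came from male Wistar rats, were sieved from the kidneys on day 11 and were grouped by label into 4 groups of 4 samples each. The control group (Ctl) was labelled healthy. The other groups had received an intravenous injection of puromycin aminonucleoside (PAN), a toxin that injures podocytes and is used to model nephrotic syndrome. One of them is labelled with PAN alone, one also received pioglitazone (PAN_Pio) and one GQ-16 (PAN_GQ-16), both by daily oral gavage. Pioglitazone is an agonist of the nuclear receptor PPARγ, and GQ-16 is a partial agonist of the same receptor. The labels name a sham vehicle without saying which groups received it, and they give no dose, no litter and no animal number. Each sample is called a rat here, and replicate numbers only name the samples of a group. The p-values test a difference of group means against the spread between samples within groups, estimated from all 4 groups in the main fit.

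Matricellular proteins are secreted into the extracellular matrix, where they modulate the contact between cells and matrix rather than serve as structural fibres. Sparc binds collagen and is made by cells that assemble or remodel matrix, and Thbs1 (thrombospondin-1) can activate latent TGF-β. Bgn (biglycan) is a small leucine-rich proteoglycan that binds collagen and, when released, Toll-like receptors. Lox, Loxl1 and Loxl2 are copper-dependent enzymes that oxidise lysines of collagen and elastin, the first step of covalent cross-linking, and in the glomerulus mesangial cells are a known source of such matrix.

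As background, sequences around the transcription starts of these genes are shown first, and their part in the results below was not tested. The RefSeq promoter table of build GRCr8 held 3 of the 6 genes, Sparc, Thbs1 and Loxl1. Each window runs from 250 bases before to 50 bases after the start, is written 5′ to 3′ on the strand of the gene, and has in capitals every match to any of 6 motifs searched on both strands. The windows are chr10:40038767-40039066 on the minus strand for Sparc, chr3:125510000-125510299 on the plus strand for Thbs1 and chr8:67612175-67612474 on the minus strand for Loxl1.
Sparc: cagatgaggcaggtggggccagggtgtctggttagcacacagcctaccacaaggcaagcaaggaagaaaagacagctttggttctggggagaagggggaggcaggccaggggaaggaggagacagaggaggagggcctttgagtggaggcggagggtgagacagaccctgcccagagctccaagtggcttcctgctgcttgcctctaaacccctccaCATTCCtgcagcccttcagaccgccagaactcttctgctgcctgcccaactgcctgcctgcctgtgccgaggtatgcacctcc
Thbs1: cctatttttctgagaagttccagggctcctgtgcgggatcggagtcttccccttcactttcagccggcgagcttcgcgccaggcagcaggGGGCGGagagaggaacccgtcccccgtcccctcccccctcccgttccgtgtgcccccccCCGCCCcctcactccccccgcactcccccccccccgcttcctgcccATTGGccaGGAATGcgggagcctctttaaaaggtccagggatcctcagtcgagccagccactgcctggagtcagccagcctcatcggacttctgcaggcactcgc
Loxl1: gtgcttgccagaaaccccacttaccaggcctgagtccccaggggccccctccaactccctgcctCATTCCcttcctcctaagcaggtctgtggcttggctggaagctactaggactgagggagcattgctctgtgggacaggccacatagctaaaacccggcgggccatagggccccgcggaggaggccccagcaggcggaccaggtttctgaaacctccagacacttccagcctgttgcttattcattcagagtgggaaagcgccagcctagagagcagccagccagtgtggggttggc

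The motifs were the TATA box (TATAAA), the CCAAT box (CCAAT), the SP1 motif (GGGCGG), the AP-1 motif (TGANTCA), the TEAD motif (GGAATG) and the CArG box. Among 33469 promoter windows of the same length, 14.2% held TATAAA, 37.5% CCAAT, 33.1% GGGCGG, 7.33% TGANTCA, 14.2% GGAATG and 1.64% the CArG box. All 3 windows held GGAATG, read on the minus strand with its first base at position -33 in Sparc, on the plus strand at -47 in Thbs1 and on the minus strand at -186 in Loxl1, counted from the transcription start. Thbs1 also held 2 GGGCGG matches, at -160 and -101, and a CCAAT match on the minus strand at -55. None of the matches overlapped another, and the TATA, AP-1 and CArG letters were not in these 3 windows. The GC content was 61% in Sparc, 67% in Thbs1 and 61% in Loxl1, against a median of 51.7% over all windows. These matches describe the letters only and do not show binding by a factor.

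Levels are given as CPM, that is, reads of a gene scaled to a common total of reads in the listed genes. Library totals ran from 13351137 to 21977663 reads, and 3 reads, taken as the smallest detectable level, correspond to 0.14 to 0.22 CPM. The markers of the podocyte, a defining cell of the glomerulus, were all present, with a summed level of 6531 to 9660 CPM over 7 of 7 markers in the PAN rats. In the Ctl rats the same sum was 8264, 2100, 2114 and 3993 CPM for replicates 1 to 4, so Ctl replicate 1 stood apart from the other Ctl rats. Ctl replicate 1 was also the highest Ctl rat for 6 of the 6 genes of the set, and PAN replicate 1 was the highest PAN rat for 6 of 6. Mitochondrial transcripts took 26.3% ± 11.8 (SD, n = 4) of the reads in Ctl and 9.24% ± 2.20 in PAN, 14.3% ± 4.57 in PAN_Pio and 16.4% ± 11.2 in PAN_GQ-16. Since shares of a total are linked, the counts of called genes and the PAN changes of the set are also given after median-ratio scaling, which scales each library by the median ratio over all genes.

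All 6 genes were higher in PAN than in Ctl glomeruli, by 2.20-fold (Sparc) to 6.88-fold (Loxl2) in the group means of 5 of them, and no PAN rat overlapped a Ctl rat in any of the 6. The remaining gene, Lox, was 9.96-fold higher through PAN replicate 1 and 2.78-fold higher without it, and Loxl2 was 4.62-fold higher without that rat. By limma, 6 of 6 had a Benjamini-Hochberg adjusted p under 0.05, where 22.3% of all 13222 genes had one, and 22.4% of all genes had all PAN rats above all Ctl rats. Lox reached 2 CPM in 0 Ctl rats and was listed through the injected groups, so it carries no weight in these counts. Among genes with a mean of at least 10 CPM, which leaves out Lox, 5 of 5 were called, where 23.8% of 9909 genes were. The median log2 change of these 5 genes was 1.75. The share of all genes called depended on single rats, and was 37.5% without Ctl replicate 1 (6 of 6 genes of the set), 6.5% without Ctl replicate 2 (4 of 6), 6.34% without Ctl replicate 3 (4 of 6), 7.93% without PAN replicate 1 (4 of 6), 9.96% without PAN replicate 2 (5 of 6) and 14.8% without PAN replicate 3 (6 of 6). The median log2 change of the 6 genes was 1.72, against 0.28 over all genes. With median-ratio scaling the median over all genes became -0.0032 and that of the 6 genes 1.46, and 4 of 6 stayed under the threshold, without Sparc and Lox, where 8.63% of all genes were called. Of all genes called in PAN against Ctl 97.7% were higher, and 82.5% after median-ratio scaling and 73.7% after quantile normalization. Sample titles carry numbers, called library numbers here, and the labels do not say what they mean. Those of 25 or higher held 3 of 4 PAN but 0 of 4 Ctl rats. With a model term for these libraries 4 of 6 genes were called, again without Sparc and Lox, where 2.97% of all genes were. Among library numbers of 15 or lower, with 1 PAN rat, the 6 changes were 0.96 to 1.86 and 0 were called, where 0.597% of all genes were. In bulk tissue more RNA per cell and more cells of a type cannot be told apart.

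**Figure D1:**
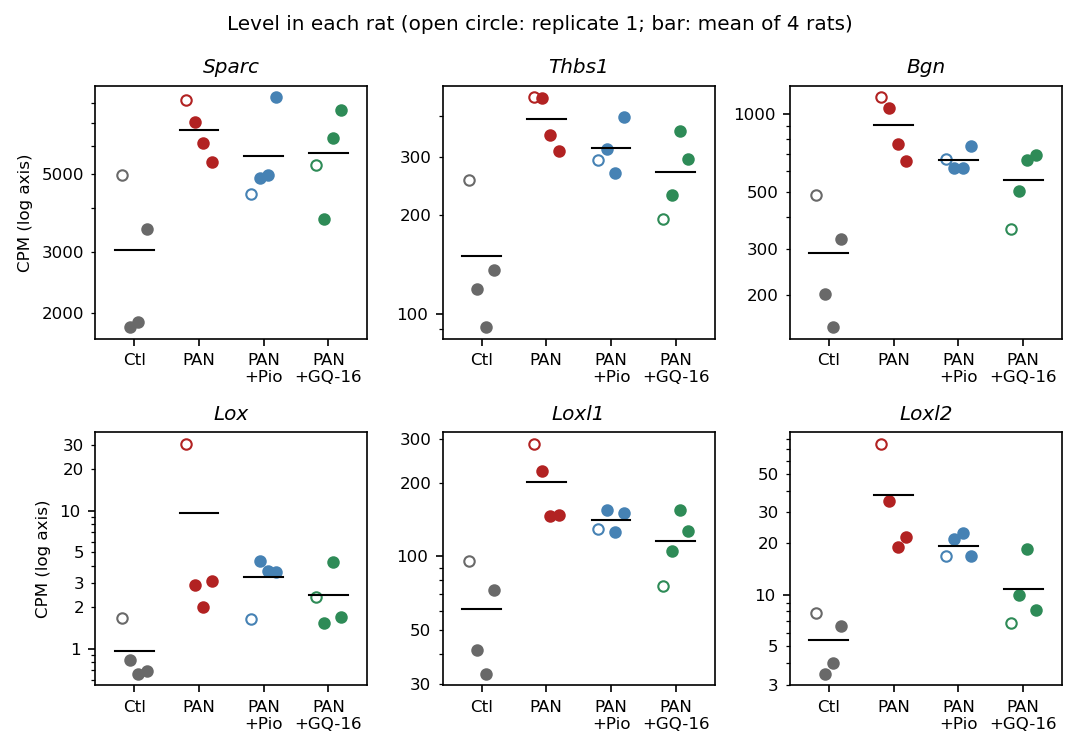
Level of each gene in each rat, in CPM on a logarithmic axis, by group (Ctl, PAN, PAN with pioglitazone, PAN with GQ-16). Each circle is 1 rat, open circles are replicate 1 and bars are the means of 4 rats; all PAN rats lie above all Ctl rats in each panel, and the PAN replicate 1 circle of Lox, at 30.5 CPM, lies far above the other PAN rats.

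Sparc (ENSRNOG00000012840) had levels of 4969, 1825, 1881 and 3489 CPM in Ctl replicates 1 to 4, a mean of 3041 ± 1499 (SD, n = 4). In PAN the levels were 8132, 7059, 6137 and 5412 CPM, a mean of 6685 ± 1177. The lowest PAN rat was thus above the highest Ctl rat, but by a small margin, and the Ctl rats themselves fell into a higher and a lower pair. Sparc rose by a log2 change of 1.25 (SE 0.35, 95% interval 0.51 to 1.99, limma adjusted p = 0.0231). After median-ratio scaling the log2 change was 0.95 and the adjusted p 0.0506, just above the threshold. The Sparc call was also lost without Ctl replicate 2 (adjusted p = 0.0980), Ctl replicate 3 (0.0940), PAN replicate 1 (0.0741) or PAN replicate 2 (0.0579), with the change between 1.05 and 1.22 in these fits.

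In the drug groups Sparc was at 4396, 4887, 4965 and 8289 CPM with pioglitazone (5634 ± 1788) and at 5315, 3722, 6350 and 7656 CPM with GQ-16 (5761 ± 1663). Both groups overlapped PAN, and both overlapped Ctl. The change against PAN was -0.28 with pioglitazone (95% interval -1.02 to 0.46) and -0.25 with GQ-16 (-0.99 to 0.49), neither of which passed the test. With 1 rat left out these changes ran from -0.48 to -0.17 and from -0.40 to -0.053. Sparc had the largest within-group correlation of the 6 genes with the mitochondrial share, a Pearson value of -0.92 over the 16 rats after group means were removed, and -0.86 after median-ratio scaling. Both quantities share the library total, and no p is given.

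Thbs1 (ENSRNOG00000045829) was at 255, 119, 91.6 and 136 CPM in Ctl (150 ± 72.2) and at 454, 451, 350 and 313 CPM in PAN (392 ± 71.6). Ctl replicate 1 was well above the other Ctl rats but below every PAN rat. Thbs1 rose by a log2 change of 1.47 (SE 0.26, 95% interval 0.90 to 2.03, limma adjusted p = 0.00228), and by 1.16 with an adjusted p of 0.00464 after median-ratio scaling. Pioglitazone rats had 294, 317, 268 and 397 CPM (319 ± 55.8) and GQ-16 rats 195, 231, 360 and 295 CPM (270 ± 72.9). Against PAN the change was -0.29 with pioglitazone (95% interval -0.86 to 0.27) and -0.56 with GQ-16 (-1.12 to 0.0046, unadjusted p = 0.0517, limma adjusted p = 0.608). Against Ctl, Thbs1 rose with pioglitazone by 1.17 (adjusted p = 0.0240), with every pioglitazone rat above every Ctl rat.

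Bgn (ENSRNOG00000055962), the proteoglycan of the set, was at 484, 201, 150 and 330 CPM in Ctl (291 ± 149). The PAN rats had 1160, 1054, 765 and 659 CPM (910 ± 236), so the groups were well apart. Bgn rose by a log2 change of 1.75 (SE 0.31, 95% interval 1.09 to 2.40, limma adjusted p = 0.00207), and by 1.44 with an adjusted p of 0.00370 after median-ratio scaling. Pioglitazone rats lay close together at 668, 618, 620 and 753 CPM (665 ± 63.3). GQ-16 rats had 358, 506, 662 and 697 CPM (556 ± 156), with the lowest of them inside the Ctl range. Against PAN the change was -0.42 with pioglitazone (-1.07 to 0.24) and -0.72 with GQ-16 (-1.38 to -0.064, unadjusted p = 0.0335, limma adjusted p = 0.556).

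Among the lysyl oxidases Loxl2 showed the largest change of the set in PAN on the log2(CPM + 1) scale, at 6.88-fold in the group means, where Lox, with its 1 high rat, was at 9.96-fold. Loxl2 (ENSRNOG00000016758) was at 7.86, 3.48, 4.02 and 6.56 CPM in Ctl (5.48 ± 2.08) and at 74.9, 35.2, 19.0 and 21.7 CPM in PAN (37.7 ± 25.8). The PAN rats were themselves widely spread, yet even the lowest was above all Ctl rats. Loxl2 rose by a log2 change of 2.42 (SE 0.37, 95% interval 1.65 to 3.20, limma adjusted p = 0.000815), above that of 99.6% of all genes. After median-ratio scaling the change was 2.16 with an adjusted p of 0.00223, and without PAN replicate 1 it was 2.03, the smallest value with any 1 rat left out.

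Loxl2 was also the gene of the set for which the GQ-16 rats lay below all PAN rats. They had 6.85, 9.92, 18.3 and 8.11 CPM (10.8 ± 5.17), and pioglitazone rats had 16.7, 20.9, 22.7 and 16.7 CPM (19.3 ± 3.05). The separation from PAN was narrow, since the highest GQ-16 rat had 18.3 and the lowest PAN rat 19.0 CPM. The GQ-16 minus PAN change of Loxl2 was -1.59 (SE 0.37, 95% interval -2.37 to -0.82, unadjusted p = 0.000487), and its limma adjusted p of 0.295 missed the threshold. Only 0.144% of all genes had a lower change in that comparison, the change was -1.47 (adjusted p = 0.292) after median-ratio scaling, and without PAN replicate 1 the change was -1.20. With pioglitazone the change against PAN was -0.73 (-1.51 to 0.041, unadjusted p = 0.0618, limma adjusted p = 0.916), and -0.98 to -0.34 with 1 rat left out. GQ-16 minus pioglitazone gave -0.86 (-1.63 to -0.084, unadjusted p = 0.0319, adjusted p = 0.772).

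Loxl1 (ENSRNOG00000008680), an enzyme best known for elastic fibre maintenance, was at 95.6, 41.4, 33.2 and 73.1 CPM in Ctl (60.8 ± 28.9). In PAN it was at 288, 224, 146 and 147 CPM (201 ± 68.1), all above Ctl. Loxl1 rose by a log2 change of 1.77 (SE 0.30, 95% interval 1.13 to 2.42, limma adjusted p = 0.00171), and by 1.47 with an adjusted p of 0.00320 after median-ratio scaling. Pioglitazone rats had 130, 155, 126 and 151 CPM (140 ± 14.6) and GQ-16 rats 75.4, 105, 154 and 127 CPM (115 ± 33.4). Both drug groups overlapped PAN, and the lowest GQ-16 rat lay within the Ctl range. The change against PAN was -0.46 with pioglitazone (-1.11 to 0.18) and -0.79 with GQ-16 (-1.43 to -0.14, unadjusted p = 0.0201, limma adjusted p = 0.512).

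Lox (ENSRNOG00000014426), the founding lysyl oxidase, was scarce in these glomeruli. Ctl rats had 26, 16, 10 and 12 reads, or 1.69, 0.827, 0.664 and 0.698 CPM, and PAN rats had 576, 49, 35 and 47 reads, or 30.5, 2.91, 2.02 and 3.13 CPM. PAN replicate 1 thus set the PAN mean of 9.65 ± 13.9 CPM, while the other PAN rats lay close together. The log2 change was 1.70 (SE 0.54, 95% interval 0.56 to 2.84, limma adjusted p = 0.0364), and 0.92 with an adjusted p of 0.0567 without PAN replicate 1. The call was also lost without Ctl replicate 2 (adjusted p = 0.106), Ctl replicate 3 (0.106) or Ctl replicate 4 (0.0533). It was lost as well with median-ratio scaling (a change of 1.52, adjusted p = 0.0900), quantile normalization (0.153), voom weights (0.115), a fit of only the 2 groups (0.0865) and the term for library numbers (0.262). Every gene of the table had reached 2 CPM in at least 8 libraries, and Lox reached it in 0 Ctl, 4 PAN, 3 pioglitazone and 2 GQ-16 rats. It was therefore listed through the injected groups, a higher level in them than in Ctl is built into its listing, and its place in the count of 6 carries no weight of its own.

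Lox was at 1.66, 4.34, 3.68 and 3.60 CPM with pioglitazone (3.32 ± 1.16) and at 2.39, 1.54, 4.27 and 1.72 CPM with GQ-16 (2.48 ± 1.25). Against PAN the log2 changes were -0.58 and -0.91, and without PAN replicate 1 they became 0.19 and -0.13. The direction with pioglitazone thus rested on a single PAN rat.

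**Figure D2:**
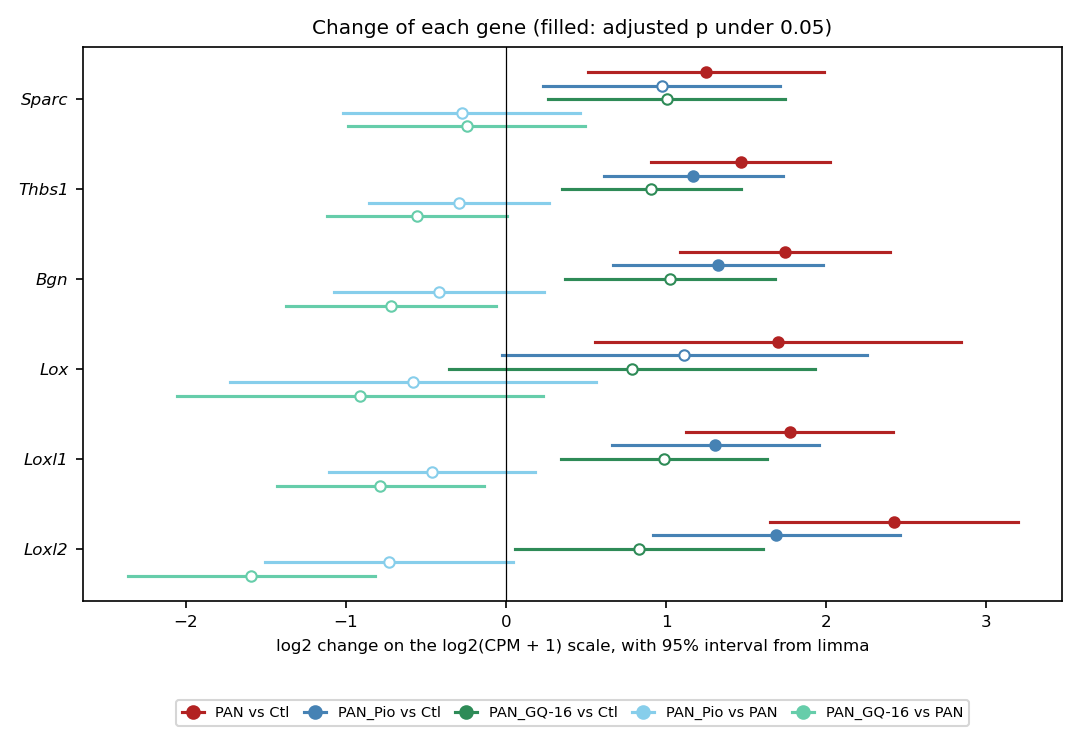
Log2 change of each gene on the log2(CPM + 1) scale, with 95% intervals from limma, for 3 comparisons with Ctl and 2 with PAN; filled points passed an adjusted p of 0.05. All 6 PAN points and 4 of the pioglitazone points against Ctl are filled, whereas the points of both drugs against PAN are open and lie left of 0.

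With pioglitazone, the group means lay between those of PAN and Ctl for all 6 genes, and none passed the test against PAN. For PAN_Pio minus PAN, 0 of 6 genes were called where 0% of all 13222 genes were, 0 had an unadjusted p under 0.05 where 495 of all genes did, and 0 had all pioglitazone rats below all PAN rats where 2.36% of all genes did. The 6 changes ran from -0.73 to -0.28 with a median of -0.44, against -0.09 over all genes. After median-ratio scaling these medians were -0.36 and -0.015. Against Ctl, 4 of 6 genes rose with pioglitazone (Thbs1, Bgn, Loxl1 and Loxl2), where 4.98% of all genes were called, and the same 4 had no overlap with Ctl, where 13.1% of all genes were higher without overlap. Their log2 changes were 1.17 for Thbs1, 1.33 for Bgn (limma adjusted p = 0.0254), 1.31 for Loxl1 (0.0252) and 1.69 for Loxl2 (0.0204). Sparc (0.97, adjusted p = 0.102) and Lox (1.12, 0.183) did not pass. The same 4 were called after median-ratio scaling, where 2.85% of all genes were, with changes of 0.95, 1.11, 1.09 and 1.51 for Thbs1, Bgn, Loxl1 and Loxl2. With voom weights the call of Loxl2 was lost (1.65, adjusted p = 0.0883), where 1.89% of all genes were called, and among library numbers of 15 or lower 1 of the 6 was called, where 2.16% were. The count of 4 fell to 0 without Ctl replicate 2, Ctl replicate 3 or PAN_Pio replicate 2, where the share of all genes called fell to 0.363%, 0.492% and 0.431%, and to 1 without PAN_Pio replicate 4, where it fell to 1.3%. With both Ctl replicate 1 and PAN replicate 1 left out the count was 6, and 13% of all genes were called. The calls over all genes moved in the same direction in each of these fits.

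With GQ-16, the group means were again between PAN and Ctl for all 6 genes. For PAN_GQ-16 minus PAN, 0 of 6 genes were called by limma where 0.0151% of all genes were, and 3 (Loxl1, Loxl2 and Bgn) had an unadjusted p under 0.05, as did 1094 of all genes. Loxl2 was the 1 gene of 6 without overlap, where 3.47% of all genes were lower without overlap. The median change was -0.75, against -0.11 over all genes, and -0.63 against 0.0060 after median-ratio scaling. Against Ctl, 0 of 6 were called where 0.151% of all genes were, although 5 had an unadjusted p under 0.05, as did 3165 of all genes. None of the 6 was free of overlap with Ctl, where 4.92% of all genes were higher without overlap. Their changes against Ctl ran from 0.79 to 1.03, with adjusted p between 0.103 and 0.361. Without Ctl replicate 1, Sparc, Thbs1, Loxl1 and Bgn were called (4 of 6), where 11.9% of all genes were, and without both Ctl replicate 1 and PAN replicate 1 all 6 were, where 12.3% of all genes were. The calls over all genes thus moved with the count of the set. After median-ratio scaling of all 16 rats 0 of 6 were called, where 0.741% of all genes were, with adjusted p from 0.0783 to 0.415.

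The mean levels were ordered PAN, pioglitazone, GQ-16 and Ctl from high to low in 5 genes, and Sparc had the 2 drug groups the other way round. Lox held this order through PAN replicate 1. Without that rat its PAN mean was 2.69 CPM, below pioglitazone at 3.32, and the group medians of all rats were 3.02 and 3.64 CPM. Neighbours in this order did not pass the test from PAN to pioglitazone or from pioglitazone to GQ-16, where 0 of 6 genes and 0% of all genes were called, nor from GQ-16 to Ctl. After median-ratio scaling 0 of 6 were likewise called with either drug against PAN or between the drugs. GQ-16 minus pioglitazone had a median change of -0.31, against -0.02 over all genes, and 1 of the 6, Loxl2, had an unadjusted p under 0.05, as did 786 of all genes. The 3 comparisons with Ctl share the same Ctl rats and the comparisons with PAN share the same PAN rats, so their changes are not independent of each other. The labels give no doses, so the drugs cannot be set at a matched dose.

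**Figure D3:**
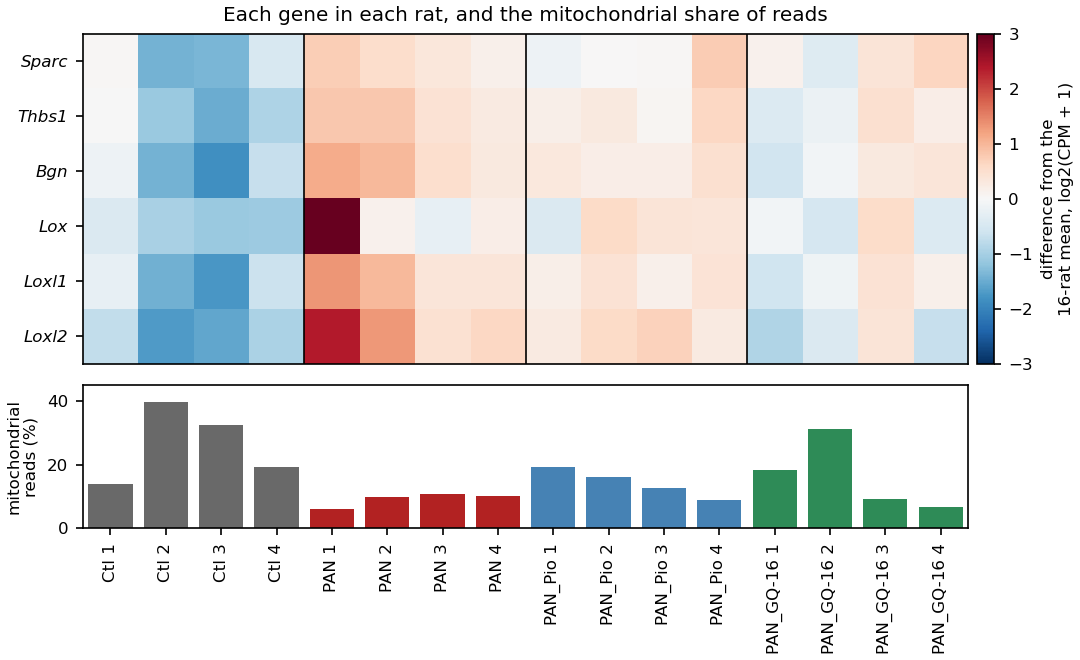
Difference of each gene in each rat from its mean over 16 rats, in log2(CPM + 1) units (colours, upper panel), above the share of reads from mitochondrial genes in % (bars, lower panel). The 6 genes are blue together in Ctl replicates 2, 3 and 4 and red together in PAN replicate 1, and the mitochondrial share is highest in Ctl replicate 2 (39.6%) and lowest in PAN replicate 1 (5.98%).

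The genes of the set varied together from rat to rat. Over the 16 rats the 15 pairs of genes had Pearson correlations between 0.63 and 0.99 on the log2(CPM + 1) scale. After group means were removed, they still ran from 0.37 (Sparc with Lox) to 0.96 (Loxl1 with Bgn), with 0.93 for Thbs1 with Bgn and 0.81 for Lox with Loxl2. These rats also differed in mitochondrial share, and the within-group correlation with that share was -0.69 for Thbs1, -0.71 for Bgn, -0.68 for Loxl1, -0.45 for Loxl2 and -0.33 for Lox. After median-ratio scaling these were -0.42, -0.49, -0.47, -0.25 and -0.24. The part of the mitochondrial share in the results was not tested.

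Of 10714 other genes with a symbol and a mean of at least 5 CPM, the 5 with the profile most like the mean of the set over 16 rats were Lhfpl6, Emp3, Tpst1, Dbn1 and Calu. Dbn1 encodes the actin-binding protein drebrin, Calu the calcium-binding protein calumenin of the secretory pathway, Tpst1 a tyrosylprotein sulfotransferase of the Golgi and Emp3 an epithelial membrane protein. Their Pearson correlations were 0.99 for Lhfpl6, Emp3, Tpst1 and Dbn1 and 0.98 for Calu, with Spearman values of 0.97, 0.95, 0.95, 0.98 and 0.95. Without the 2 rats farthest from the median, Ctl replicates 2 and 3, Pearson values stayed between 0.97 and 0.98, and within groups they were 0.95 to 0.97. Calu, for example, was at 116 ± 30.2 CPM in Ctl and 231 ± 58.5 CPM in PAN (SD, n = 4), and Lhfpl6 at 26.0 ± 9.92 and 75.3 ± 20.6 CPM. The points share libraries and depth, and a likeness chosen from so many genes is a description without a p.

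Relatives of the set, genes of matrix fibres and receptors were described from 5 lists with 73 genes, of which 49 are analysed here. In PAN against Ctl 26 of 49 rose and 1 fell, where 21.7% of all genes were called higher and 0.522% lower, and 19 rose and 1 fell after median-ratio scaling, where 7.12% of all genes were called higher and 1.51% lower. The list counts below stand against these shares, and the list medians against 0.28 over all genes. The counts of 26 and 19 include Smoc2, Thbs3 and Adamts14, which reached 2 CPM in 0, 1 and 2 Ctl rats. A higher level in injected rats is built into the listing of Smoc2 and Thbs3, and no count was made without them. Of the 27 called genes 15 were called with any 1 rat left out and 12 were not. The count that rose was 15 without Ctl replicate 2, 16 without Ctl replicate 3 and 18 without PAN replicate 1, where 6.5%, 6.34% and 7.93% of all genes were called. Against PAN, 0 of 49 were called by limma with either drug, and 6 had an unadjusted p under 0.05 with pioglitazone and 13 with GQ-16, as did 3.74% and 8.27% of all genes. Against Ctl, 7 rose with pioglitazone (6 after median-ratio scaling), where 4.98% and 2.85% of all genes were called. With GQ-16, 1 rose, where 0.151% of all genes were called, and 2 rose and 1 fell after median-ratio scaling, where 0.741% were.

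Among 11 matricellular relatives, 7 rose in PAN (5 after median-ratio scaling), with a median log2 change of 1.43. Both counts and the median include Smoc2 and Thbs3, which were listed mainly through the injected groups. Ccn2, a matricellular protein induced by TGF-β and by YAP, went from 233 ± 226 to 927 ± 338 CPM (log2 change 2.39, limma adjusted p = 0.0120, and up to 0.0562 with 1 rat left out), and its relative Ccn1 from 36.9 ± 12.2 to 116 ± 61.9 CPM (1.56, 0.00239). The Sparc relative Smoc2 rose from 0.713 ± 0.306 to 6.95 ± 7.11 CPM (1.90, 0.00486), but 0 Ctl rats reached 2 CPM for it (7 to 18 reads), so that, as for Lox, its higher level in injected rats is built into its listing. The Smoc2 mean in PAN was 3.40 CPM without PAN replicate 1, and the lowest change with 1 rat left out was 1.38. Thbs3 rose from 1.42 ± 0.775 to 5.94 ± 3.12 CPM (1.47, 0.00360). It reached 2 CPM in 1 Ctl, 4 PAN, 4 pioglitazone and 2 GQ-16 rats. Thbs3 thus met the rule of 8 libraries mainly through the injected groups, and its higher level in them is likewise built in. Thbs2, the closest relative of Thbs1, was at 67.7 ± 15.3 CPM in Ctl and 57.4 ± 11.5 CPM in PAN, a log2 change of -0.23 that did not pass (adjusted p = 0.422). Thbs2 is named here after its values were seen.

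The 4 small leucine-rich proteoglycans other than Bgn that are analysed here were not called by limma in PAN, with a median change of 0.30 and 1 unadjusted p under 0.05, as had 42.1% of all genes. The 2 with the largest changes were Fmod, at 1.16 ± 0.430 in Ctl and 2.23 ± 0.683 CPM in PAN (0.58, limma adjusted p = 0.0912), and Prelp, at 5.64 ± 4.21 and 9.51 ± 8.56 CPM (0.55, adjusted p = 0.399), where the PAN mean of Prelp was 5.26 CPM without PAN replicate 1. Both encode proteins that bind collagen, and Fmod also had 0 Ctl rats at 2 CPM.

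Among 12 other genes of cross-linking and collagen maturation, 9 rose (6 after median-ratio scaling), with a median of 0.86. Both counts include Adamts14, whose Ctl level lay near the listing rule. Adamts14, a protease that removes the amino-terminal propeptide of fibrillar procollagen, showed the largest change, from 1.86 ± 0.364 to 36.2 ± 15.3 CPM (log2 change 3.63, limma adjusted p = 4.3e-05). Adamts14 reached 2 CPM in 2 Ctl rats (26 to 34 reads in the 4) and in 4 of 4 rats of each injected group. Its Ctl mean lay just under the 2 CPM of the listing rule, so its listing may favour a higher level in the injected groups. How much of the change comes with the listing was not tested. Pcolce, which enhances removal of the carboxy-terminal propeptide, rose from 85.8 ± 67.5 to 386 ± 54.9 CPM (2.50, 0.00467), and the lysyl oxidase Loxl3 from 7.68 ± 3.70 to 22.1 ± 6.60 CPM (1.47, 0.00486). The prolyl hydroxylase P3h1 rose from 48.3 ± 26.95 to 91.0 ± 19.8 CPM (1.02, 0.0469), a call lost after median-ratio scaling (adjusted p = 0.117) and in 11 of the fits with 1 rat left out (0.168 at most). With GQ-16, Adamts14 was at 8.84 ± 4.80 CPM, a change against PAN of -1.98 with an adjusted p of 0.0573, and with pioglitazone at 11.2 ± 3.79 CPM (-1.58, adjusted p = 0.880).

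Of 6 genes of collagen and elastic fibres (Col1a1, Col3a1, Col5a1, Col5a2, Eln and Fbn1), 5 rose (4 after median-ratio scaling), with a median of 1.88. Col1a1, a chain of type I collagen, went from 27.4 ± 22.1 to 580 ± 792 CPM (log2 change 3.79, limma adjusted p = 0.00481). PAN replicate 1 set that mean, with 1763 CPM against 268, 202 and 87.3 CPM in the others, and without it the mean was 186 CPM. With any 1 rat left out Col1a1 stayed called, with a change of 2.95 to 4.39. Col3a1, the chain of type III collagen, was not called in PAN and had 767 CPM in PAN replicate 1 against 13.8, 6.87 and 3.46 CPM in the others, and it is named after its values were seen. Fbn1, the fibrillin of microfibrils, rose from 31.8 ± 9.86 to 129 ± 66.9 CPM (1.91, 0.000877), Col5a1 from 39.3 ± 11.4 to 161 ± 106 CPM (1.85, 0.00236) and Eln, the elastin gene, from 28.7 ± 5.85 to 77.0 ± 44.0 CPM (1.23, 0.0126). The call of Eln was lost after median-ratio scaling (adjusted p = 0.0612) and without Ctl replicate 2 (0.0542). Col1a1 was the 1 gene of the 49 called in PAN_GQ-16 against Ctl, at 585 ± 337 CPM (4.48, adjusted p = 0.0255), and that call was lost in 4 of the fits with 1 rat left out (0.145 at most). After median-ratio scaling it was called at 4.32 (adjusted p = 0.0216), together with Adamts14 (1.53, 0.0396) and, lower, Met (-0.69, 0.0401). The limit given above for the listing of Adamts14 holds for this call as well. For Col1a1, GQ-16 minus PAN gave 0.69 (95% interval -0.95 to 2.33).

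Of 16 receptors and partners, 5 rose and 1 fell in PAN (4 and 1 after median-ratio scaling), with a median of 0.56, where 21.7% of all genes rose, 0.522% fell and the median over all genes was 0.28. The integrin subunit Itgb5 went from 192 ± 161 to 541 ± 153 CPM (log2 change 1.76, limma adjusted p = 0.0226), and the collagen receptor Ddr2 from 9.52 ± 6.70 to 28.8 ± 6.13 CPM (1.68, 0.0183). Itga8, an integrin of mesangial cells, rose from 166 ± 64.1 to 370 ± 72.9 CPM (1.22, 0.00790) and Itgav from 62.6 ± 37.1 to 125 ± 19.2 CPM (1.12, 0.0491, and 0.134 after median-ratio scaling). The gene that fell was Met, the receptor of hepatocyte growth factor, from 48.0 ± 5.67 to 32.3 ± 7.55 CPM (-0.58, 0.0191), named after its values were seen. With 1 rat left out the calls of Itgb5, Ddr2, Itgav and Met were lost in 4, 2, 11 and 3 fits, and that of Itga8 in 0.

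**Figure D4:**
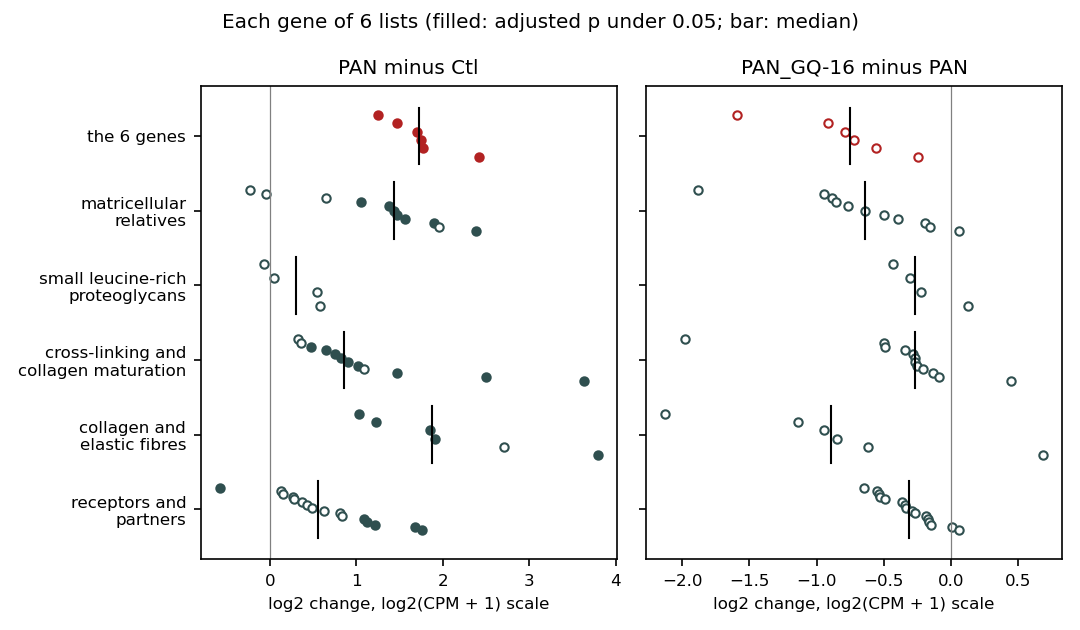
Log2 change of each gene (log2(CPM + 1) scale) in PAN minus Ctl (left) and PAN_GQ-16 minus PAN (right), for the 6 genes of the set (red) and 5 lists of related genes (dark); filled points passed an adjusted p of 0.05 and bars are medians. In PAN most points lie right of 0 with medians from 0.30 to 1.88, and with GQ-16 all points are open.

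Markers of the cell types that the sieved tissue could hold are given beside the set. Their counts stand against 21.7% of all genes called higher and 0.522% called lower in PAN (7.12% and 1.51% after median-ratio scaling). The summed level of mesangial and smooth muscle markers was 263 to 727 CPM in Ctl, 1500 to 2612 in PAN, 1033 to 1499 with pioglitazone and 650 to 1211 with GQ-16. All 6 of its 6 analysed markers rose in PAN (5 after median-ratio scaling), and Itga8 belongs to this list and to the receptors. The list held Pdgfrb, Itga8, Acta2, Tagln, Myh11, Cnn1 and Des, of which 6 are analysed. Whether other cells of the injured glomeruli also expressed these markers was not tested. PAN replicate 1, the highest PAN rat for each gene of the set, was the highest of all 16 rats for this sum. The podocyte sum was 2100 to 8264 CPM in Ctl, 6531 to 9660 in PAN, 3813 to 10841 with pioglitazone and 3760 to 12880 with GQ-16, and 2 of 7 podocyte markers rose in PAN (1 after median-ratio scaling). Leukocyte markers summed to 347 to 606 CPM in Ctl and 565 to 1160 in PAN, with 3 of 6 higher, and 0 of 6 after median-ratio scaling. PAN replicate 1 was likewise the highest of 16 rats for the leukocyte sum, at 1160 CPM, and for the parietal epithelial sum, and the highest PAN rat for the podocyte and interstitial fibroblast sums. The same rat was the lowest PAN rat for the proximal tubule sum, at 2552 CPM. It was the lowest of 16 rats for the distal tubule and collecting duct sum, at 482 CPM. For the endothelial sum it had rank 3 among the PAN rats.

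The mesangial and smooth muscle sum was the 1 of the 8 sums in which Ctl and PAN rats did not overlap. Interstitial fibroblast markers summed to 94.8 to 196 CPM in Ctl and 127 to 186 in PAN (0 of 4 called), endothelial markers to 4661 to 6819 and 3960 to 6119 (0 of 6) and proximal tubule markers to 3332 to 7416 and 2552 to 8444 (0 of 6). Parietal epithelial markers summed to 103 to 151 and 102 to 160 CPM, with 1 of 5 called higher and 0 after median-ratio scaling. Distal tubule and collecting duct markers summed to 898 to 1587 CPM in Ctl and 482 to 1026 in PAN, with 3 of 6 lower (2 after median-ratio scaling). No marker was at 0 reads throughout a group. The part of the cell types in the changes of the set was not tested.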

How the data were processed

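RNA sequencing of glomeruli from 16 rats in 4 groups was analysed. The deposited table holds log2 CPM values for 13222 genes, and per the labels' protocols libraries were stranded and selected for poly(A) RNA. The submitters' processing notes name the build Rnor_6.0 and the tools HISAT2, featureCounts, Subread and limma, without role or version. The deposited log2 values carry an offset of 0.5 read per gene and 1 read per library, as voom writes it, and removing the offset gave reads within 0.1 of a whole number for 100% of values. The table had no column without a sample. Log2 changes and intervals came from limma (version 3.58.1, under R 4.3.3), applied to log2(CPM + 1), which understates changes of scarce genes, with 1 model of 4 group means, a variance trend and Benjamini-Hochberg adjustment over all genes. Genes with an adjusted p under 0.05 are called. Fits were tested on simulated data. All tests were two-sided.

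The members, the lists and the tests were chosen with earlier results of these data known. All member genes in the table are named, and from each list up to 4 genes with the largest absolute change among those called in PAN against Ctl, or the 2 largest changes where fewer than 2 were called. Marker lists covered podocytes, mesangial and smooth muscle cells, interstitial fibroblasts, endothelium, parietal epithelium, leukocytes, proximal tubule, and distal tubule and collecting duct. Libraries of a group were compared for duplicates, and their reads differed by a chi-square per gene of 13.3 to 297 over 24 pairs. Mitochondrial share is the sum over 21 mitochondrial genes. Levels were not compared between genes, whose lengths were not used. Promoter sequences are from RefSeq build GRCr8, which is not the build of the table. Alternatives were median-ratio scaling, quantile normalization, a pseudocount of 0.1, the deposited log2 values, voom weights with median-ratio scaling, only the 2 groups compared, a term for libraries numbered 25 or higher in the sample titles, only library numbers of 15 or lower, a mean of at least 10 CPM, and leaving out each rat. Leaving out both Ctl replicate 1 and PAN replicate 1 was added after the values were seen.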

Additional observations from a re-analysis of the deposited data

Results flagged for a closer look

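Lox in PAN replicate 1 stood far from the other PAN rats. Its log2(CPM + 1) value was 4.98, against 1.60 to 2.05 in the other PAN rats, and the gap to the nearest of them took 0.867 of the range of the group, above Dixon's critical value for 4 samples. Of 24 groups examined (6 genes in 4 groups) 1 exceeded the limit, where chance gives about 1.2.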

How the results depend on the processing

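In PAN against Ctl all 6 genes were higher in each alternative run and with each rat left out. The count of called genes was 6 with a pseudocount of 0.1 or the deposited log2 values, where 22.4% of all genes were called. It was also 6 with both Ctl replicate 1 and PAN replicate 1 left out (20.4%). The count was 5 with quantile normalization (8.59%), voom weights (7.92%) or only the 2 groups compared (11.9%). With a mean of at least 10 CPM, which leaves out Lox, it was 5 of 5 (23.8%). The count was 4 with median-ratio scaling (8.63%) or the term for library numbers (2.97%), and 4 to 6 with 1 rat left out. It was 0 among library numbers of 15 or lower, where 1 PAN rat remains, is assumed to vary like the other groups, and the changes were 0.96 to 1.86. Library numbers of 25 or higher held 3 of 4 PAN rats and 0 of 4 Ctl rats, so the number and the group overlap in part. For pioglitazone against Ctl the count was 1 among library numbers of 15 or lower and 0 to 5 with 1 rat left out. For GQ-16 against Ctl it was 0 to 4 with 1 rat left out and 6 with both Ctl replicate 1 and PAN replicate 1 left out. Sparc reversed with that term, to 0.023 for pioglitazone minus PAN and 0.054 for GQ-16 minus PAN, and its GQ-16 minus pioglitazone change ran from -0.12 to 0.23 with 1 rat left out. Lox reversed for pioglitazone minus PAN, with a range of -0.93 to 0.19 with 1 rat left out and 0.19 with both left out. The cause was not tested. Over all genes, PAN against Ctl gave 2943 calls (97.7% higher), 1141 with median-ratio scaling (82.5% higher), 1136 with quantile normalization (73.7%), 1047 with voom weights, 1580 with only the 2 groups, 393 with that term and 79 among library numbers of 15 or lower. Pioglitazone against Ctl gave 659, and 377 with median-ratio scaling, 250 with voom weights and 1716 with both left out. GQ-16 against Ctl gave 20, and 98, 35 and 1630. Ctl reads were few for Lox (10 to 26), Smoc2 (7 to 18), Fmod (14 to 27), Thbs3 (15 to 39) and Adamts14 (26 to 34). No paired analysis was possible because the labels give no replicate numbers shared between groups.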
